A study of Danio rerio with 44 samples.

Results

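Gamma-M crystallins are small structural proteins of the fish lens, written crygm in zebrafish, and the family described here holds 35 genes of the 25859 Ensembl genes in the deposited count table. Members were taken by symbol alone: every Ensembl identifier whose zebrafish symbol starts with crygm belongs to the family. Lens fibre cells fill themselves with crystallins, lose their nuclei and organelles, and keep the same proteins for life, which gives the lens its transparency and refractive power. In fish the gamma-M class, named for its methionine-rich sequences, is packed at very high density in the hard, spherical lens that focuses light under water. Most of its genes are tandem copies so alike that a short read may match several of them. For that reason the summed count of the family is given beside every account of single copies.

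Wild-type (WT) zebrafish embryos kept at 26 °C were exposed from 24 to 96 h after fertilization, a period of 72 h, and RNA was sequenced from whole organisms in pools of 20 embryos. The compounds were PFOS, PFECHS and FBSA, fluorinated surfactant-type chemicals of the PFAS class. PFOS is perfluorooctane sulphonate. PFECHS is perfluoroethylcyclohexane sulphonate, which has a ring where PFOS has a straight chain. FBSA, named perfluorobutanesulphamide in the labels, has a perfluorinated chain shorter than that of PFOS and ends in an amide. Each compound was given at 4 concentrations, the lowest 0.001 mg/L, then 0.1 mg/L, 1 mg/L and 5 mg/L, and each had its own solvent controls, which received no PFAS. All groups, controls included, were held in 0.1% DMSO. There were 3 pools in each of the 15 groups except FBSA at 0.1 mg/L, for which 2 pools were analysed, giving 44 libraries. The series asked how sub-lethal and environmentally relevant concentrations of these compounds act on the transcriptome. Since each library is a pool, p-values measure the spread between pools.

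Library totals ran from 24478700 to 36533700 estimated counts, so that 1 count stood for 0.0275 to 0.0428 CPM. CPM is the usual depth-scaled count, taken here on library totals after TMM scaling. The family took between 0.328% and 1.29% of all counts of a library, or 87273 to 374441 counts. Its sum was therefore measured far above counting error, and the spread between pools set the precision. In whole-organism RNA, fewer lens cells and less crystallin RNA per lens cell cannot be told apart. The lens signal itself was plain in the data. Alpha, beta and other gamma crystallins summed to 5427 to 9782 CPM in the FBSA controls, and genes of the lens fibre membrane and cytoskeleton to 328 to 853 CPM.

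Nearly all of the family signal came from 23 genes. The 21 copies named crygm2d1 to crygm2d21 held 93.0% of the family count over all libraries, and the pair crygmx and crygmxl2 held 6.78%. Mean levels over the 44 libraries were 741 CPM for crygm2d10, 585 for crygm2d1, 534 for crygm2d8, 534 for crygm2d3, 477 for crygm2d13, 466 for crygm2d17, 450 for crygm2d21, 423 for crygm2d2 and 387 for crygm2d18. These are shares of the sequenced reads and are not corrected for gene length, so their order is not an order of transcript number. The next group comprised crygmxl2 at a mean of 338 CPM, crygm2d5 at 327, crygm2d16 at 317, crygm2d9 at 311, crygm2d15 at 289, crygm2d14 at 268, crygm2d11 at 267, crygm2d20 at 243 and crygmx at 205. Below them were crygm2d7 at 188 CPM, crygm2d6 at 185, crygm2d4 at 175, crygm2d19 at 175 and crygm2d12 at 99.9.

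The other 12 members were at a far lower level in whole embryos. Their means were 6.51 CPM for crygm5, 4.05 for crygm2f, 1.53 for crygmxl1, 1.09 for crygm2e, 0.573 for crygm2c, 0.481 for crygm2b, 0.467 for crygm3 and 0.230 for crygm4. Lowest were crygm7 at 0.0725 CPM, crygm2a at 0.0448, crygm1 at 0.0226 and crygm6 at 0.00234. crygm7 had 0 counts in 29 of the 44 libraries. crygm2a, crygm1 and crygm6 had too few counts to be tested, with totals of 59, 30.5 and 3 counts over all libraries, which left 32 tested members among 22703 tested genes. Some of the low members followed the family sum weakly: crygm4, crygm7, crygm3 and crygm2c had Pearson's r with it of -0.03, 0.10, 0.32 and 0.33 over the 44 libraries, whereas crygm2d21 and crygm2d18 had 1.00 and 0.99. Each of the last 2 copies is part of that sum.

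In the RefSeq annotation (assembly GRCz12tu, used for names and gene order only) 29 members stand as an unbroken run of protein-coding neighbours. The run starts at crygm2c, holds all 21 crygm2d copies, ends at crygm3 and is followed by crygs4, a gamma-S crystallin gene. crygmx and crygmxl2 are neighbours of each other elsewhere, between aldh18a1 and tcf7l2. crygm7, crygm6 and crygm1 lie just before the long run, separated by unnamed genes, and crygm4 stands alone. The 2 places thus hold almost all of the family's reads.

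The family was lower in all FBSA 5 mg/L pools than in any control pool. The summed level was 3367, 3809 and 3260 CPM in the FBSA 5 mg/L pools, against 10461, 9389 and 8054 CPM in the FBSA controls. The groups did not overlap, and the highest exposed pool was also below all 9 solvent controls of the study, which ran from 5851 to 10461 CPM. The means were 3479 ± 291 CPM at 5 mg/L and 9301 ± 1206 CPM in the controls (SD, n = 3 each). On the log2 scale the sum differed by -1.41 ± 0.13 (SE), a level 2.66-fold lower. A fit over all genes that held the family as 1 summed gene gave -1.42, with a 95% interval from -1.90 to -0.95. No p-value is given for the sum, since it is a score over chosen members. It does not depend on how reads were divided among near-identical copies.

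Along the FBSA series the mean sum was lowest at the 2 highest concentrations. The sum was 8197, 8629 and 7329 CPM at 0.001 mg/L, and 6803 and 11451 CPM in the 2 pools at 0.1 mg/L. At 1 mg/L it was 5568, 3234 and 7592 CPM. All 3 pools at 1 mg/L were below all 3 FBSA controls, but they spread widely, and replicate 2 was as low as the 5 mg/L pools while replicate 3 lay within the range of the 0.001 mg/L pools. The mean at 1 mg/L was 5465 ± 2181 CPM (SD, n = 3), and its log2 difference from the controls was -0.84 ± 0.38 (SE). The differences at 0.001 and 0.1 mg/L were -0.20 ± 0.13 and -0.07 ± 0.39. These 4 comparisons use the same 3 control pools and are not independent of each other. The 4 lowest of the 44 libraries were the FBSA 5 mg/L pools and replicate 2 at 1 mg/L.

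With PFOS and PFECHS the family sum overlapped that of the controls at every concentration. In PFOS pools the sum ran from 7043 to 10425 CPM over all concentrations and controls. At 5 mg/L PFOS it was 8034, 9867 and 8977 CPM, against 8149, 8024 and 10425 CPM in the PFOS controls, a log2 difference of 0.02 ± 0.15 (SE). The PFECHS pools at 5 mg/L had 6251, 7767 and 9187 CPM, against 5851, 6587 and 9786 CPM in the PFECHS controls, a log2 difference of 0.08 ± 0.28. Exposed and control pools overlapped for both compounds. PFECHS at 0.001 mg/L had the highest single library of the study, with 12916, 8691 and 8150 CPM, and a log2 difference of 0.43 ± 0.31 that was of the size of its error. At 0.1 and 1 mg/L the log2 differences were 0.31 ± 0.24 and -0.05 ± 0.25 for PFECHS. For PFOS they were -0.05 ± 0.18, 0.02 ± 0.17 and -0.03 ± 0.13 at 0.001, 0.1 and 1 mg/L.

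**Figure D1:**
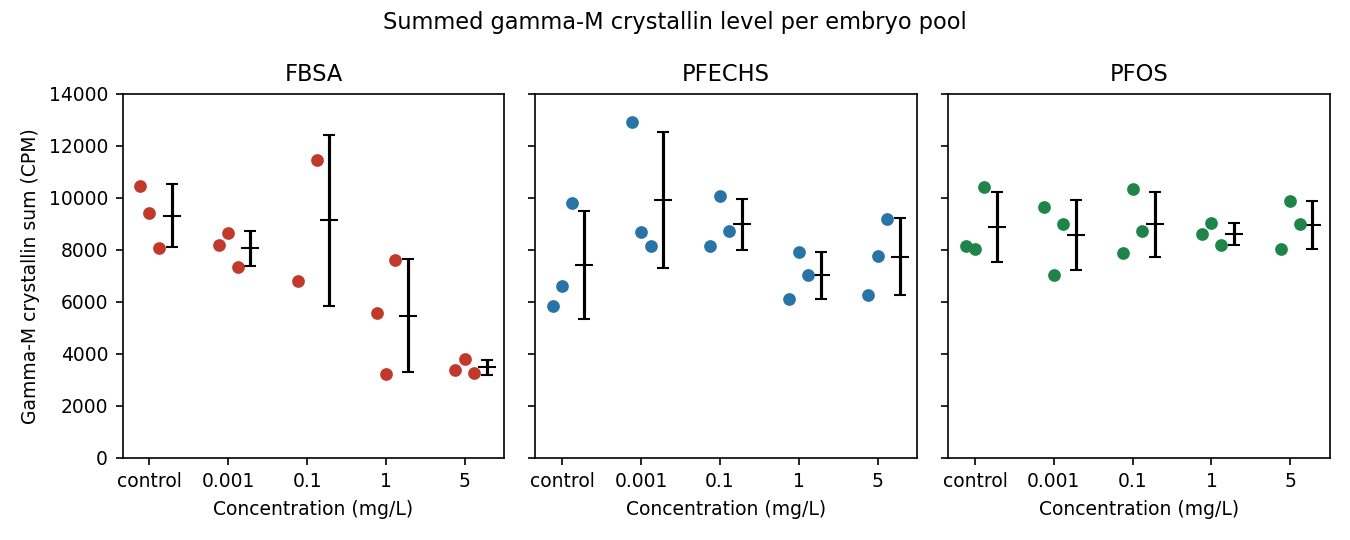
Summed level of the 35 gamma-M crystallins in CPM (vertical axis) in each embryo pool (points, replicates from left to right) by concentration in mg/L (horizontal axis) for FBSA, PFECHS and PFOS; black marks are group means with SD. The 3 FBSA 5 mg/L pools sit between 3260 and 3809 CPM, below all 9 controls, and no group of PFECHS or PFOS separates from its controls.

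Tested gene by gene, 25 of the 32 tested members fell at FBSA 5 mg/L and 0 rose (edgeR quasi-likelihood test, Benjamini-Hochberg adjusted over all genes, threshold 0.05). The background was 5.44% of all tested genes called lower and 11.2% called in either direction. The members' median log2 fold change was -1.33, with a range from -2.03 to 0.64, while the median of all tested genes was -0.01. Of the 32, 30 were below 0. In 26 members every exposed pool was below every control pool, a pattern shown by 9.28% of all tested genes. The copies share reads and a tissue, so these counts are not 25 separate observations. The call rests on an estimate of spread that is shared with the PFOS and PFECHS libraries. With the fit restricted to FBSA libraries, 0 members were called, although the median log2 fold change was -1.32, 26 members had an unadjusted p under 0.05, and the smallest adjusted p was 0.167. The share of all tested genes with an unadjusted p under 0.05 was not counted, here or in later comparisons. Nor was the share called in the fit restricted to FBSA libraries counted, so its 0 has no background to be set against.

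All 21 crygm2d copies fell, with log2 fold changes from -2.03 to -1.05 and adjusted p from 0.000345 to 0.0109. The 6 members with the highest mean levels belong to this group. crygm2d10 had 346, 373 and 366 CPM in the FBSA 5 mg/L pools, against 863, 775 and 784 CPM in the FBSA controls. Its log2 fold change was -1.16 ± 0.23 (SE, edgeR adjusted p = 0.00204). crygm2d1 had 270, 302 and 323 CPM at 5 mg/L and 681, 619 and 706 CPM in the controls. Both copies were close to even among the exposed pools, and neither had an exposed pool near a control. crygm2d8 had 207, 229 and 135 CPM at 5 mg/L, against 736, 649 and 507 CPM in the controls. Its fold change of -1.73 ± 0.25 had the smallest p of the family (edgeR adjusted p = 0.000345). crygm2d3 had 248, 269 and 257 CPM at 5 mg/L and 598, 562 and 609 CPM in the controls. The exposed pools of crygm2d3 had a mean of 258 CPM and an SD of 10.6 CPM, far from the control mean of 589 CPM with an SD of 24.7 CPM.

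crygm2d13 and crygm2d17 complete the group of highest mean level. crygm2d13 had 180, 222 and 141 CPM at FBSA 5 mg/L, against 700, 617 and 334 CPM in the FBSA controls, of which the third was well below the other two. crygm2d17 had 237, 202 and 201 CPM at 5 mg/L, against 542, 490 and 559 CPM in the controls. Their log2 fold changes were -1.60 ± 0.29 and -1.31 ± 0.24 (SE, edgeR adjusted p = 0.00125 and 0.00121). No exposed pool overlapped a control for either copy.

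Among the crygm2d copies, the 3 with the largest falls stood side by side. crygm2d9 had 101, 128 and 73.0 CPM at FBSA 5 mg/L, against 486, 457 and 290 CPM in the FBSA controls, a log2 fold change of -2.03 ± 0.31 (SE, edgeR adjusted p = 0.000345). Its neighbour crygm2d5 had 102, 127 and 78.6 CPM at 5 mg/L, against 457, 463 and 281 CPM in the controls, a fold change of -1.97 ± 0.39 (adjusted p = 0.00253). The neighbour on the other side, crygm2d4, changed by -1.78 ± 0.31. In all 3 copies control replicate 3 was the lowest control, yet it remained above every exposed pool. Whether these 3 copies fell further than the rest of the run was not tested, and their standard errors reach those of several other copies. crygm2d11 had 109, 123 and 74.9 CPM at 5 mg/L and 363, 319 and 261 CPM in the controls. crygm2d15 had 116, 120 and 107 CPM at 5 mg/L and 380, 331 and 281 CPM in the controls. These last 2 copies changed by -1.62 ± 0.25 and -1.53 ± 0.24 (edgeR adjusted p = 0.000345 and 0.000399), and for both the exposed pools lay far below the controls.

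**Figure D2:**
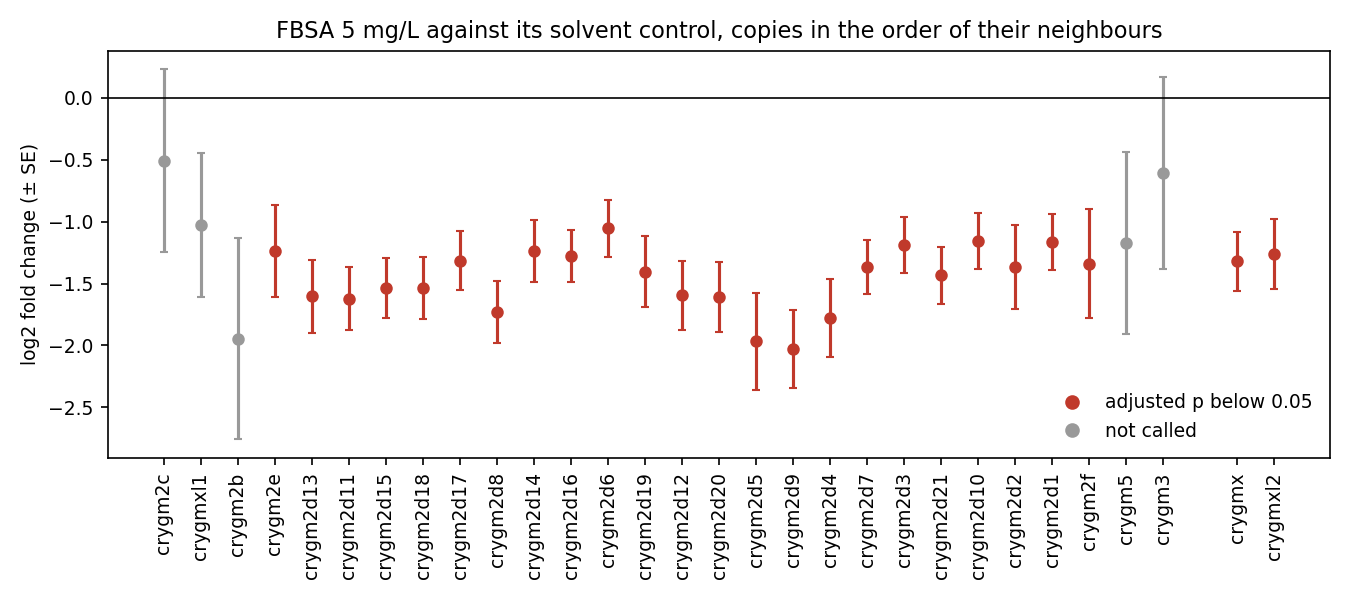
Log2 fold change at FBSA 5 mg/L against the FBSA controls (vertical axis, points with SE bars, n = 3 pools each) for the tested members of the 29-gene run and, after a gap, for crygmx and crygmxl2 (horizontal axis, in the order of their neighbours in the annotation); red marks an adjusted p below 0.05. All 21 crygm2d copies lie between -2.03 and -1.05, with the lowest values at crygm2d5, crygm2d9 and crygm2d4.

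The pair at the second place fell too. crygmx had 122, 102 and 53.4 CPM in the FBSA 5 mg/L pools, against 249, 234 and 209 CPM in the FBSA controls, a log2 fold change of -1.32 ± 0.24 (SE, edgeR adjusted p = 0.00121). crygmxl2 had 124, 185 and 191 CPM at 5 mg/L, against 491, 380 and 325 CPM in the controls, a change of -1.26 ± 0.28 (adjusted p = 0.00534). Replicate 3 at 5 mg/L was the lowest exposed pool for crygmx and the highest for crygmxl2, so the split between these neighbours varied more than their sum. The pair summed to 246, 286 and 244 CPM at 5 mg/L and 741, 614 and 534 CPM in the controls. It made up 7.32% to 7.52% of the family at 5 mg/L and 6.54% to 7.08% in the controls.

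Of the 9 tested members at low level, 2 were called at FBSA 5 mg/L, both lower, against 5.44% of all tested genes called lower. crygm2f had 1.95, 2.49 and 1.09 CPM at 5 mg/L, against 6.46, 4.86 and 2.76 CPM in the controls, a log2 fold change of -1.34 ± 0.44 (SE, edgeR adjusted p = 0.0440). crygm2e changed by -1.24 ± 0.37 (adjusted p = 0.0303), with 0.442, 0.727 and 0.424 CPM at 5 mg/L and 0.929, 1.03 and 1.82 CPM in the controls. For both, every exposed pool was below every FBSA control, a pattern shown by 9.28% of all tested genes. crygm2e rests on 48 counts at 5 mg/L and 128 counts in the controls over all pools. Among all 9 solvent controls of the study the lowest value of crygm2f was 0.717 CPM, below its exposed pools. crygm5 had 1.68, 3.71 and 5.05 CPM at 5 mg/L and 14.3, 7.07 and 2.26 CPM in the controls. It overlapped and was not called (-1.17 ± 0.73, adjusted p = 0.301). Across the 44 libraries crygm5 ran from 0.146 CPM, in replicate 2 of FBSA 1 mg/L, to 15.4 CPM, in replicate 1 of PFECHS 0.001 mg/L. The same pools were the lowest and the highest for the family sum. crygm2b (-1.95 ± 0.81, adjusted p = 0.110), crygmxl1 (-1.03 ± 0.58, adjusted p = 0.249) and crygm3 (-0.61 ± 0.77, adjusted p = 0.647) were not called.

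crygm2c and crygm4 had the smallest fold changes, and crygm4 and crygm7 were the 2 members above 0. crygm2c had 0.221, 0.369 and 0.882 CPM at FBSA 5 mg/L and 0.893, 0.491 and 0.716 CPM in the controls (-0.51 ± 0.74, edgeR adjusted p = 0.695). crygm4 had 0.332, 0.182 and 0.318 CPM at 5 mg/L and 0, 0.115 and 0.468 CPM in the controls (0.45 ± 0.76, adjusted p = 0.745). Its sign turned to -0.10 without control replicate 1. crygm7 had all of its 8 counts at 5 mg/L in replicate 2 and all of its 5 control counts in replicate 1, and no direction can be read from it.

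While the family fell, the shares of single copies in it differed from those in the FBSA controls in both directions. crygm2d10 made up 10.4% of the family on average at FBSA 5 mg/L and 8.74% in the controls, and crygm2d8 made up 5.43% at 5 mg/L and 6.75% in the controls. The share of crygm2d5 was 2.92% at 5 mg/L and 4.27% in the controls, and that of crygm2d9 was 2.87% at 5 mg/L and 4.37% in the controls. crygm2d21 held 5.63% at 5 mg/L and 5.70% in the controls, and was the steadiest copy of the abundant ones, between 5.16% and 5.90% in all 44 libraries. Shares of other copies varied more and often in opposition. crygm2d2 ran from 1.99% to 6.96%, and the shares of crygm2d13 and crygm2d1 were correlated at r = -0.93 over the 44 libraries. Shares sum to 100, which by itself favours negative values, and copies that share reads can trade counts. Whether such trades reflect transcription or the division of reads was not tested.

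**Figure D3:**
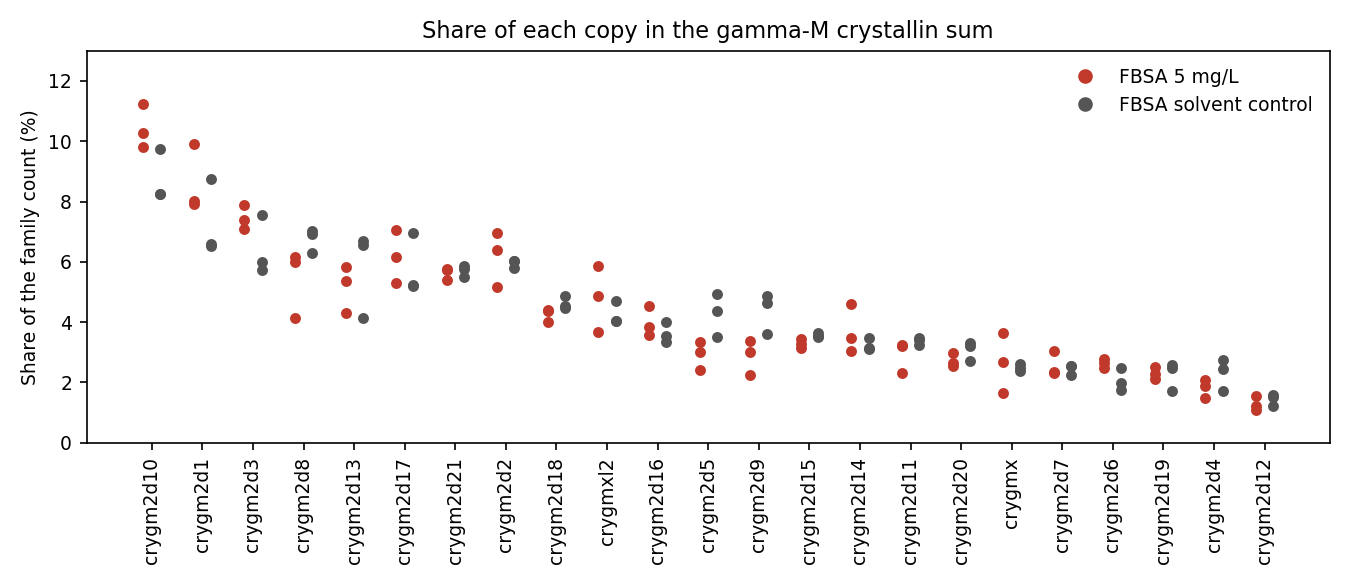
Share of each of the 23 abundant members in the family count (vertical axis, percent) in the 3 FBSA 5 mg/L pools (red, left) and the 3 FBSA control pools (grey, right), with members along the horizontal axis in order of mean share. crygm2d10 averages 10.4% at 5 mg/L and 8.74% in the controls, crygm2d9 averages 2.87% at 5 mg/L and 4.37% in the controls, and most copies overlap between the groups.

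At FBSA 1 mg/L, 0 of the 32 tested members passed the adjusted threshold, by edgeR or by DESeq2, and the background was 0% of all tested genes. Of the members, 31 were below 0 with a median of -0.78, against -1.33 at 5 mg/L and 0.02 for all genes at 1 mg/L. By either tool 24 had an unadjusted p under 0.05, a threshold for which the share of all tested genes was not counted. The copies share reads and vary together, so these are not separate observations. At PFECHS 0.001 mg/L 31 members also lay on one side, above 0, with 0 called. The log2 difference of the family sum at FBSA 1 mg/L was -0.51 without replicate 2 and -1.12 without replicate 3. In 15 members all pools at 1 mg/L were below all controls, against 2.91% of all tested genes. crygm2d8 had 375, 207 and 512 CPM at 1 mg/L and 736, 649 and 507 CPM in the controls, a log2 fold change of -0.79 ± 0.24 (SE, edgeR adjusted p = 0.452). That SE uses the spread shared by all groups. The copy's own SD of log2 CPM was 0.66 in the 1 mg/L pools and 0.27 in the FBSA controls. The smallest adjusted p of the family was 0.346, for crygm2d7. Of the 6 fits with a pool of this comparison left out, only 1 called any member. It was the fit without replicate 3, the pool at 1 mg/L with the highest family sum, and it called 8. The share of all tested genes called in that fit was not counted. At 0.001 and 0.1 mg/L FBSA 0 members were called, 0 had an unadjusted p under 0.05 by either tool, the background was 0%, and the medians were -0.21 and -0.03.

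A linear trend over the 5 levels from control to 5 mg/L, taken as equally spaced, was called for 25 members in FBSA, all downward, against 5.57% of all tested genes called lower. The median slope was -0.32 log2 units per step. crygm2d8 had the smallest p, with a slope of -0.41 ± 0.06 (SE, edgeR adjusted p = 7.46e-05). As in the comparison at 5 mg/L, the count was 0 with only FBSA libraries in the fit. There the smallest adjusted p was 0.109, and the share of all tested genes called was not counted. The trend uses the 5 mg/L pools and is not independent of that comparison. It was not particular to the family. An FBSA trend was also called lower for 14 of 18 alpha, beta and other gamma crystallins and 11 of 19 lens fibre genes. The same held for 15 of 35 photoreceptor genes. Pigment genes had 2 of 13 called lower with a median slope of -0.03, too few to read a trend of that list. Of 16 lens transcription factors 1 was called lower, near the share of all tested genes, and 4 were called higher, with a median slope of 0.07. Called in either direction were 11.2% of all tested genes.

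No member was called at any concentration of PFOS or PFECHS, by edgeR or DESeq2. The background there was 0% of all tested genes at all 4 PFECHS concentrations and at PFOS 0.001 mg/L, and 0.0176%, 0.00881% and 0.0132% at PFOS 0.1, 1 and 5 mg/L. For PFOS, 0 members had an unadjusted p under 0.05 at any concentration, and the members' medians ran from -0.05 to 0.03. For PFECHS, 8 members at 0.001 mg/L and 1 at 0.1 mg/L had an unadjusted p under 0.05, all higher, by edgeR, and 9 and 1 by DESeq2. The PFECHS medians were 0.49, 0.34, -0.07 and 0.04 along the series. At 0.001 mg/L 31 members were above 0, but in 0 of them were all exposed pools above all controls, against 6.71% of all tested genes. Control replicate 3 had a family sum of 9786 CPM. No trend was called for a member with PFOS (background 0.348%) or PFECHS (background 0%). By edgeR 1 PFOS trend and 0 PFECHS trends had an unadjusted p under 0.05, and by DESeq2 likewise 1 and 0.

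**Figure D4:**
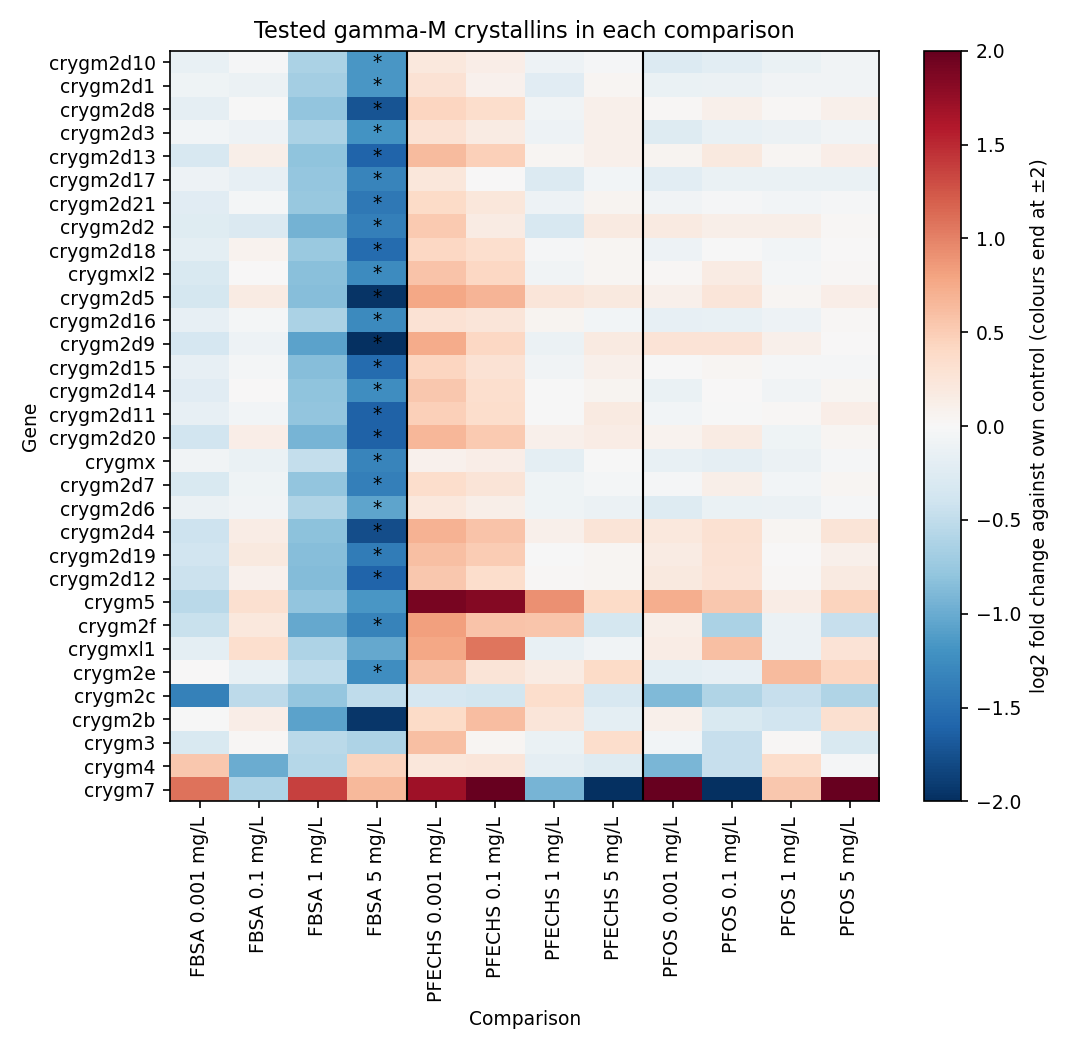
Log2 fold change against the compound's own controls (colour, ending at ±2) for the 32 tested members (rows, from highest to lowest mean CPM) in the 12 comparisons (columns, by compound and concentration); asterisks mark an adjusted p below 0.05. The 25 asterisks are all in the FBSA 5 mg/L column, beside an unmarked blue column at FBSA 1 mg/L. Deep colours in the lowest row, crygm7, rest on a few counts.

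The compounds were compared directly by testing the difference between their changes at the same concentration, over 12 contrasts in all (3 pairs at 4 concentrations). At 5 mg/L the change was lower with FBSA than with PFOS for 20 of 32 members, against 2.3% of all tested genes called lower and 4.92% in either direction. It was lower with FBSA than with PFECHS for 23 members, against 4.81% and 9.17%. The 2 contrasts share the FBSA pools. When p-values were adjusted over all genes and the 12 contrasts together, 2 and 4 members were called, against backgrounds of 0.339% and 0.533%. crygm2d8 and crygm2d11 were called against both compounds, and crygm2d9 and crygm2d15 against PFECHS. Some of these counts lean on single pools. Without replicate 3 of FBSA 5 mg/L, 3 members were called against PFOS and 11 against PFECHS, and without FBSA control replicate 2, 4 and 13 were called. The count against PFOS was 11 without PFOS control replicate 1, 10 without PFOS control replicate 2 and 11 without PFOS 5 mg/L replicate 3. The count against PFECHS was 14 without PFECHS control replicate 1, 15 without PFECHS control replicate 2 and 13 without PFECHS 5 mg/L replicate 3.

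crygm2d8 shows the size of these differences. It had 537, 679 and 643 CPM at PFOS 5 mg/L and 531, 526 and 676 CPM in the PFOS controls. With PFECHS it had 410, 517 and 607 CPM at 5 mg/L and 381, 432 and 610 CPM in the controls. In both compounds exposed and control pools overlapped, unlike FBSA. The change with FBSA was lower than that with PFOS by a log2 difference of -1.83 ± 0.35 (SE, edgeR p adjusted over 12 contrasts = 0.0333), and lower than that with PFECHS by -1.84 ± 0.35 (adjusted p = 0.0333). For the family as 1 summed gene the differences were -1.43, with a 95% interval from -2.10 to -0.77, against PFOS and -1.47, from -2.14 to -0.81, against PFECHS.

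PFECHS, with its ring, and PFOS, with its straight chain, were not told apart by any member at 5 mg/L: 0 were called and 0 had an unadjusted p under 0.05 by edgeR or DESeq2, with a background of 0%. For the summed family the PFECHS minus PFOS difference was 0.04 on the log2 scale with a 95% interval from -0.62 to 0.70, so the interval includes differences of more than 1.5-fold in either direction. At 0.001, 0.1 and 1 mg/L 0 members were called for any pair, with a background of 0% in each contrast. For FBSA minus PFOS at 1 mg/L 13 members had an unadjusted p under 0.05 by edgeR and 13 by DESeq2. For FBSA minus PFECHS 12 members did so at 0.001 mg/L by either tool, and 15 at 1 mg/L by edgeR and 16 by DESeq2. For the summed family at 1 mg/L the estimate for FBSA minus PFOS was -0.75, with an interval from -1.41 to -0.10. For FBSA minus PFECHS it was -0.69, from -1.35 to -0.03. These intervals use a spread shared by all groups and were not adjusted over the contrasts. For FBSA 1 mg/L against its controls that fit gave an SE of 0.23, while the pools themselves gave 0.38. The intervals are thus too narrow for the FBSA 1 mg/L pools, and no difference is read from them. Between the solvent controls of the 3 series 0 members were called (backgrounds of 0.15% for FBSA minus PFOS and 0% for the other pairs), although 5 members had an unadjusted p under 0.05 and were higher in FBSA controls than in PFECHS controls by edgeR, and 6 by DESeq2.

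Other crystallins were also called lower at FBSA 5 mg/L. Of 18 tested alpha, beta and other gamma crystallins, which with the gamma-M class fill the fibre cells, 13 fell and 0 rose, against 5.44% of all tested genes called lower and 11.2% in either direction, with a median log2 fold change of -1.44. With the fit restricted to FBSA libraries, 0 genes were called in this list or in the lens fibre, lens transcription factor and photoreceptor lists described next. In that order 14, 13, 6 and 1 genes had an unadjusted p under 0.05 there. How many of all tested genes that fit called was not counted. The sum of the alpha, beta and other gamma crystallins was 2443, 3269 and 2234 CPM at 5 mg/L, against 9782, 7970 and 5427 CPM in the controls, without overlap. The smallest p was that of a gamma-N crystallin, CRYGN (ENSDARG00000102129), at -1.72 ± 0.27 (SE, edgeR adjusted p = 0.000345). The small heat shock type alpha crystallin CRYAA, a chaperone of the lens, was not called at -0.63 ± 0.38 (adjusted p = 0.276). The ratio of the gamma-M sum to that of the other crystallins was 1.38, 1.16 and 1.46 at 5 mg/L and 1.07, 1.18 and 1.48 in the controls, and the groups overlapped. Without replicate 3 at 5 mg/L, 7 of the 18 were called. By edgeR 0 of the 18 were called at PFOS or PFECHS 5 mg/L, where 0 had an unadjusted p under 0.05, or at FBSA 1 mg/L, where 13 did, all lower.

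**Figure D5:**
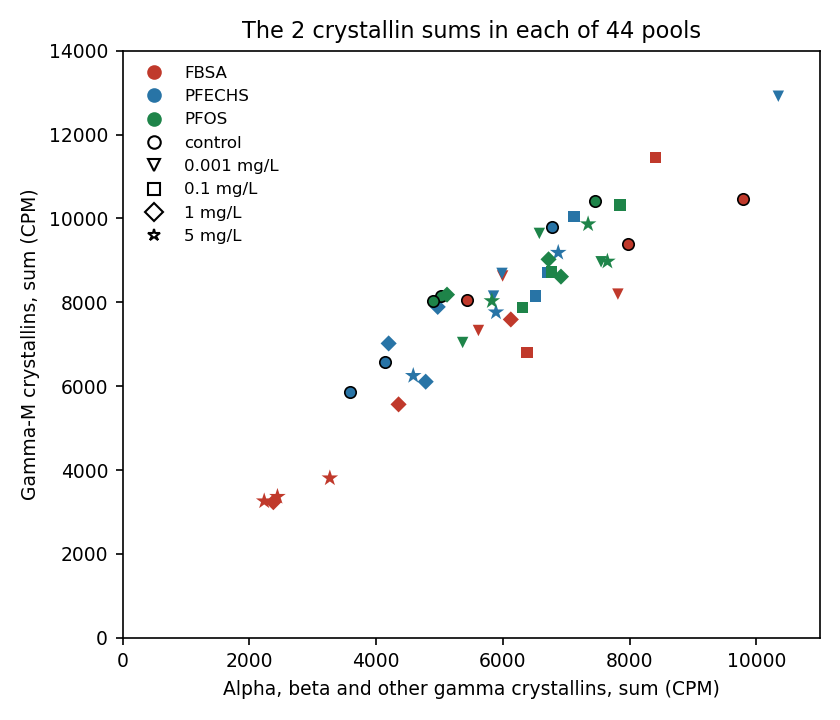
Summed gamma-M crystallins (vertical axis, CPM) against the sum of alpha, beta and other gamma crystallins (horizontal axis, CPM) in each of the 44 pools, coloured by compound, with a symbol for each concentration and black outlines for controls. The 3 FBSA 5 mg/L pools (2234 to 3269 CPM and 3260 to 3809 CPM) and replicate 2 of FBSA 1 mg/L lie apart at the lower left, on the same band as the other pools.

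Of 19 tested genes of the lens fibre membrane and cytoskeleton, 9 fell and 0 rose at FBSA 5 mg/L, with a median of -0.89, against 5.44% of all tested genes called lower. The summed level of the list was 269, 398 and 226 CPM at 5 mg/L and 853, 682 and 328 CPM in the controls, and the groups overlapped. Among the 9 genes called was LIM2 (ENSDARG00000015445), a membrane protein of fibre cell junctions, at -0.86 ± 0.19 (SE, edgeR adjusted p = 0.00590). Single pools weighed on this count, which was 0 without replicate 3 at 5 mg/L (11 at an unadjusted p under 0.05), 4 without replicate 1 at 5 mg/L, 2 without control replicate 2 and 4 without control replicate 1. The 16 tested lens transcription factors split otherwise, with 1 lower, 4 higher and a median of 0.41, against 11.2% of all tested genes called in either direction. The share called lower, 1 of 16, is near the 5.44% of all tested genes. These calls ranged from 0, without replicate 3 at 5 mg/L, to 8, without replicate 2 at 5 mg/L. They were 3 with library totals alone, with a replicate block or with place in the deposited table as a term. With other pools left out they were 3 without replicate 1 at 5 mg/L, 1 without control replicate 2 and 3 without control replicate 1. HSF4, a heat shock factor of the lens, was lower (-2.10 ± 0.66, adjusted p = 0.0376), and mafbb, a large Maf factor, was higher (1.91 ± 0.44, adjusted p = 0.00661). HSF4 had 1.07, 1.27 and 0.741 CPM at 5 mg/L and 7.47, 5.12 and 0.743 CPM in the controls, so its groups overlapped. Pitx3 and Foxe3, which act in the lens epithelium and in early lens formation, were not called at 0.10 ± 0.10 for pitx3 and 0.11 ± 0.43 for foxe3 (adjusted p = 0.569 and 0.900). Many of the transcription factors also act outside the lens, and whole-embryo RNA does not separate those sites.

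Markers of the neighbouring eye tissue were measured in the same pools. Of 35 tested cone and rod photoreceptor genes, 6 fell and 0 rose at FBSA 5 mg/L, with a median of -0.78, against 5.44% of all tested genes called lower. The count was 1 with a replicate block and 0 with the place in the deposited table as a term. Their summed level was 21807, 6126 and 5526 CPM at 5 mg/L and 16443, 13880 and 26871 CPM in the controls. Replicate 1 at 5 mg/L thus had a photoreceptor sum within the range of the controls, and its gamma-M sum of 3367 CPM was as low as in the other exposed pools. The photoreceptor count was 24 without that replicate. It was 1 without replicate 2 at 5 mg/L, 1 without control replicate 2, 0 without replicate 3 at 5 mg/L and 0 without control replicate 3 (8 and 6 at an unadjusted p under 0.05). A median below 0 was not particular to FBSA 5 mg/L. Photoreceptor medians were 0.21, -0.61 and -0.68 at the 3 lower FBSA concentrations, in rising order. They were -0.36, -0.59, -0.16 and -0.22 along PFOS and -0.03, -0.18, -0.02 and -0.03 along PFECHS. In these comparisons 0 photoreceptor genes were called, against at most 0.0176% of all tested genes. Of 13 tested genes of the retinal pigment epithelium and melanocytes 0 were called, by edgeR or DESeq2, with 3 at an unadjusted p under 0.05 by each and a median of -0.16.

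The genes most like the gamma-M sum over the 44 libraries, by Pearson's r of log2 CPM, were 7 other crystallins, LIM2 and a pair of unnamed genes. They were si:ch211-255g12.6, at r = 0.97 (Spearman's rho = 0.90), CRYGN (ENSDARG00000030411) at 0.95 (0.91), CRYBA4 at 0.94 (0.87), crybb1l2 at 0.93 (0.88) and cryba1b at 0.92 (0.89). CRYBA2 (ENSDARG00000030349), cryba1l1, si:dkey-57a22.15, CRYBB1 and LIM2 (ENSDARG00000015445) followed at 0.90, 0.90, 0.89, 0.89 and 0.89. si:dkey-57a22.15 is the gene that lies between crygm6 and crygm1. With group means removed, the r values of the first and the second were 0.93 and 0.94, so that likeness was also present among pools of the same group. Without the 2 libraries farthest from the median, replicate 2 of FBSA 1 mg/L and replicate 3 of FBSA 5 mg/L, they were 0.95 and 0.94. These genes were chosen for their likeness, so no p is given. Among the 23 abundant members themselves, the 253 pairs had r from 0.50 to 0.99 with a median of 0.90.

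The place of the libraries in the deposited table differed between the groups of the main comparison. Replicates 2 and 3 of the FBSA controls are among the last 11 columns, while replicate 1 of the controls and all FBSA 5 mg/L pools are among the first 33. Within the first 33 columns the family sum was 3260 to 3809 CPM in the 3 exposed pools and 10461 CPM in the single control, which was also the highest control of the study. A fit on these columns assumes that the lone control varies like the other groups, so its count of members called is not given here. With table place as a term in the fit, 24 members were called. The share of all tested genes called in that fit was not counted. The labels do not say what the order of the columns stands for.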

How the data were processed

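RNA-seq was done on 44 pools of whole zebrafish embryos. The authors deposited expected counts, that is, estimated counts per Ensembl gene that need not be whole. The unit was settled from the values, which are not negative and of which 54.0% to 79.8% per library are not whole. FastQC, MultiQC and Trimmomatic are named per the submitters' processing notes. The estimating program is not given in the sources used here, nor is the genome build.

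Rounded counts were tested with edgeR 4.0.16 in R 4.3.3 (TMM, filterByExpr by group, quasi-likelihood F test) in 1 fit over 15 groups, with 29 residual degrees of freedom. Adjustment was by Benjamini-Hochberg over 22703 genes. The calculation was tested on simulated data. DESeq2 1.42.0 and the settings in the closing section were alternatives. Family sums are CPM on TMM-scaled totals, and their standard errors come from the group SDs of log2 sums. Standard errors of single genes come from the edgeR fit, as the size of the fold change over the square root of F. They rest on the spread shared by all groups. Correlations used log2(CPM + 0.1). Members were matched by symbol, and lists also by RefSeq synonym or by symbol without copy letter or number. Values per pool were given for the family sum, the 6 members of highest mean, the 4 of smallest p, those of largest and smallest fold change and those with the other sign; crygmx, crygmxl2, crygm2e, crygm2f, crygm5 and crygm2d4 were added after their values were seen. The members and lists were chosen with earlier results of these data known.

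The deviations of same-numbered pools of a compound had r over 0.1 in 11 of 30 pairs for PFOS, 8 of 30 for PFECHS and 13 of 26 for FBSA. Their median r was 0.02, -0.08 and 0.07 in that order, and r for FBSA ran from -0.61 to 0.73. As no median passed 0.1, numbers were not treated as pairing pools. Whether some same-numbered FBSA pools shared a deviation was not tested further.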

Additional observations from a re-analysis of the deposited data

Results flagged for a closer look

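The effects of the compounds at 5 mg/L differed by a test of the difference itself in both contrasts that involve FBSA. For FBSA minus PFOS, 20 gamma-M crystallins were called lower out of 32 tested, and for FBSA minus PFECHS 23 were (edgeR quasi-likelihood, adjusted over all genes), against 2.3% and 4.81% of all tested genes called lower. Adjusted over all genes and the 12 contrasts together, 2 and 4 members were called. The 2 contrasts share the FBSA pools, and the copies share reads. No group had the 4 samples that a search for single outlying pools needs.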

How the results depend on the processing

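The log2 difference of the family sum moved by less than the spread between pools in all 84 recalculations under other settings. A replicate block cannot move a difference between groups with the same replicate numbers, so those of the 84 are no test. The same limit was kept in all 71 recalculations with a pool left out. In groups this small, leaving out a pool cannot move the difference beyond that spread, so no steadiness can be read from the 71. At FBSA 5 mg/L the log2 difference ran from -1.51 to -1.27 over all recalculations. It was -1.43 with the crygm2d copies alone and -1.27 with the other members alone. Of 300 recalculated member counts under other settings, 296 stayed within 1.5 times the first count. Most of these set 0 against 0, so the total says little about how steady the calls were. Members were called at first only at FBSA 5 mg/L, in the FBSA trend, and for FBSA minus PFOS and FBSA minus PFECHS at 5 mg/L. The exceptions were all fits on fewer libraries, for which the share of all tested genes called was not counted. With only the libraries of the compounds concerned, 0 members were called at FBSA 5 mg/L, 0 in the FBSA trend and 10 for FBSA minus PFOS at 5 mg/L, and with only the first 33 columns, a setting chosen after seeing the data, 6 were called for FBSA minus PFECHS at 5 mg/L. At FBSA 5 mg/L the count was 24 with the replicate block, and 25 with RLE factors, with library totals alone, with TMM factors that left out all crystallins, with DESeq2 and with either other filter on low counts. The block changed no other member count by over 1.5 times. The fold change of crygm7 turned to -1.02 in the first 33 columns.

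The other lists depended more on the settings. With only the FBSA libraries, 0 were called among other crystallins, lens fibre genes, lens transcription factors and photoreceptors. The background in that fit was not counted. Transcription factors came to 3 with library totals alone, with the replicate block and with table place as a term. Photoreceptors came to 1 with the block and to 0 with table place. Counts from the first 33 columns, which hold a lone FBSA control, are not given.

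With each pool left out in turn, members called at FBSA 5 mg/L ran from 19 to 25, at FBSA 1 mg/L from 0 to 8, for FBSA minus PFOS at 5 mg/L from 3 to 24, for FBSA minus PFECHS at 5 mg/L from 11 to 24 and for FBSA minus PFECHS controls from 0 to 1. The lists ran from 7 to 15 for other crystallins, 0 to 12 for lens fibre genes, 0 to 8 for transcription factors, 0 to 24 for photoreceptors and 0 to 3 for pigment genes. crygm4 ran from -0.10 to 2.09 and crygm7 from -3.78 to 4.43. The cause of these changes was not tested, and the smaller number of libraries was not separated from the pool removed. The share of all tested genes called in each of these fits was not counted.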
